A study of Homo sapiens with 2 samples.

Results

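A set of 9 genes that mark neuroendocrine cells or neuronal lineage was followed in the cabazitaxel (CBZ)-resistant prostate cancer cell line PC3CR and in its parent PC3. They were CHGA, CHGB, SCG2, SYP, NCAM1, UCHL1, ENO2, NKX2-1 and FOXA2. A gene was taken up through every probe set that the platform annotation pairs with its symbol alone. This gave 19 probe sets for the 9 genes, out of 41091 probe sets with 1 gene symbol and 19775 genes in all. The probe set with the highest mean of both arrays led for its gene.

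PC3CR was grown in CBZ for 18 months and then kept without the drug for 3 months before RNA was taken. CBZ is a taxane, a drug that stabilises microtubules. PC3 is a human prostate cancer line and was the untreated parent, and both lines were kept in the same serum-containing medium. Each line gave 1 array of total RNA, so no difference below has a replicate check or a p-value, and with so few arrays every value is of limited precision. PC3CR is 1 derived line, so what belongs to CBZ and what belongs to the history of this line cannot be told apart. In such bulk RNA, fewer cells that carry a transcript and less of it per cell cannot be told apart either. The values are log2 values of the robust multichip average (RMA), so a difference of 1 is 2-fold, and all differences are PC3CR minus PC3. A gene that was 2-fold or more above PC3 in PC3CR is called raised, and one that was 2-fold or more below it reduced. The median over all probe sets, used as a dividing line, was 4.81 in PC3CR and 4.81 in PC3.

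Neuroendocrine cells store peptides and amines in dense-core granules and release them on demand. The granins CHGA, CHGB and SCG2 are the acidic proteins that fill these granules, and SYP is a membrane protein of small secretory vesicles. NCAM1 (CD56) is an adhesion molecule of neural cells, while UCHL1 and ENO2 are cytosolic enzymes abundant in neurons. NKX2-1 and FOXA2 are transcription factors of endodermal organs that are also stained in small cell and neuroendocrine tumours. Pathologists use such markers to recognise neuroendocrine prostate cancer, for which etoposide (VP16), a drug the study also tested, has been used.

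The markers did not move as a group. SCG2, UCHL1 and NKX2-1 were raised in PC3CR, FOXA2 was reduced, and CHGA, CHGB, SYP, NCAM1 and ENO2 lay within 2-fold. Thus 3 of 9 members were raised, against 9.84% of all genes, and 1 was reduced, against 6.72% of all genes. Counted in either direction this was 4 of 9, against 16.6%. Over single probe sets, 5 of 19 were raised, against 8.94% of those with 1 symbol, and 2 were reduced, against 5.89%. The median difference was 0.17 over the members and -0.04 over all genes. Of the genes that reached the median on at least 1 array, 13.8% were raised and 9.38% reduced. SCG2 reached it through PC3CR alone, where it was high, so no count of members is set against these shares. Both counts of members were unchanged under each of the 10 alternatives of processing that were tried. The shares of all genes were not, at 18% higher and 13.5% lower with a 1.5-fold threshold and 3.82% and 3.1% with 3-fold. Some of the alternatives could not change the counts. Leaving out suffixed probe sets could not test NKX2-1, which has no other and kept its leading one. Choosing the probe set highest in PC3 gave the leading one for every member, and 5 members have 1 probe set. The floor at the array median admits SCG2 through PC3CR alone.

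Levels differed among the markers. The counts above the array median are given beside the shares of all genes and are not read as a trait of the set. With leading probe sets, 7 of 9 members lay above the array median in PC3CR, against 64.8% of all genes, and 6 lay above it in PC3, against 65.7%. Of the 19 probe sets, 9 lay above it in PC3CR, against 57% of all with 1 symbol, and 8 in PC3, against 56.8%. CHGA and CHGB were below it on both arrays, and SCG2 was above it in PC3CR alone. UCHL1, ENO2, NKX2-1 and FOXA2 were above it on both arrays by 0.82 or more. SYP and the leading probe set of NCAM1 were above it by at most 0.59.

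**Figure D1:**
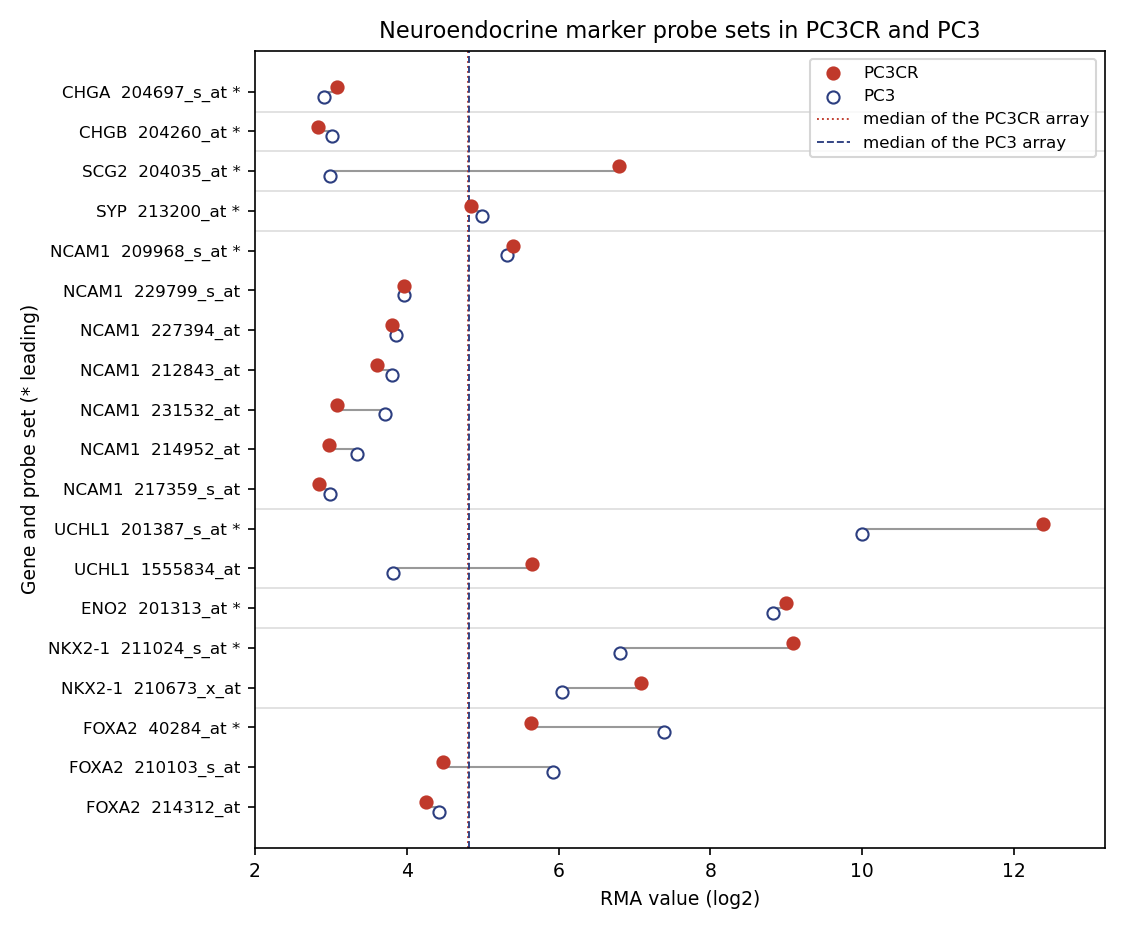
RMA values (log2, horizontal axis) of all 19 probe sets of the 9 markers (rows), with filled red points for PC3CR, open blue points for PC3, 1 array each, and an asterisk for the leading probe set of a gene. Vertical lines mark the array medians, which nearly coincide at 4.81, and the red and blue points lie far apart for SCG2, UCHL1 and NKX2-1, and for 2 of the 3 probe sets of FOXA2.

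The granins differed from one another. SCG2, the precursor of the neuropeptide secretoneurin, was at 6.79 in PC3CR and 2.98 in PC3. The difference of 3.81, or 14.0-fold, ranked 7 from the top among 19775 genes. PC3 was below the lower quartile of genes on its array (4.22), so the size of the difference rests on a value near the floor. With values under the lower quartile lifted to it, the difference was 2.57. SCG2 has 1 probe set, so no second probe set bears on it.

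CHGA, the most widely stained granin, was at 3.08 in PC3CR and 2.91 in PC3. CHGB was at 2.82 in PC3CR and 3.02 in PC3. All 4 values were below the lower quartile of genes, 4.10 in PC3CR and 4.22 in PC3, and the differences were 0.18 and -0.19. Of the 6188 genes below the median on both arrays, as these are, 1.94% passed 2-fold in either direction. The size of the CHGA difference was found to within 1e-05 in 86 other probe sets of the array, and that of CHGB in 10. The difference of CHGA was -0.12 once values were lifted to the lower quartile.

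The start of CHGA is shown because it holds the cyclic AMP response element (TGACGTCA), a site bound by CREB, which is in capitals. The window runs from 250 bases before to 50 bases after an annotated start and is chr14:92922900-92923199 on the plus strand (RefSeq, GRCh38.p14).
CHGA: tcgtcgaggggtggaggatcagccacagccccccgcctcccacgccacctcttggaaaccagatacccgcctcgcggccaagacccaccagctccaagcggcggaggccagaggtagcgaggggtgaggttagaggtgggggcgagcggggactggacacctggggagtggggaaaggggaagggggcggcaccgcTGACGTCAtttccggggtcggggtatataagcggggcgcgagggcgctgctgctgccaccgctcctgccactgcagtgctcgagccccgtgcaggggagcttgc
The element starts 54 bases before the annotated start. It was present, on either strand, in 1.85% of 35116 such windows. RefSeq windows were at hand for CHGA, SYP, UCHL1, ENO2 and NKX2-1, and for no other member did a window hold it. No window of these 5 genes held TTCAGCACC, the left part of the element of the neuronal repressor REST, which 0.376% of windows hold.

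Other genes of the dense-core granule went both ways. Among 13 genes, 2 were raised and 2 reduced, and the median difference was 0.33. Over all genes 9.84% were raised and 6.72% reduced, the shares that stand beside this count and those of the lists below. SCG5, the granule protein 7B2, was at 5.39 in PC3CR and 10.24 in PC3. Its difference of -4.85 was opposite in sign to that of SCG2. PTPRN2, a phosphatase-like protein of the granule membrane, was at 3.85 in PC3CR and 6.56 in PC3, and its 3 probe sets gave differences of -2.71 to -0.47, with the leading one below the lower quartile in PC3CR. PAM, which amidates peptide hormones, was at 11.72 in PC3CR and 10.32 in PC3, and its 3 probe sets differed by between 1.32 and 1.41. CADPS2, which primes granules for release, was at 5.33 in PC3CR and 4.27 in PC3, a difference of 1.06.

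The vesicle and membrane markers lay within 2-fold. SYP was at 4.84 in PC3CR and 5.00 in PC3, close to the median of each array. Its difference of -0.15 was shared in size by 45 other probe sets. NCAM1 had 7 probe sets. The leading one was at 5.40 in PC3CR and 5.32 in PC3. The other 6 lay between 2.84 and 3.96 in PC3CR and between 2.99 and 3.96 in PC3, below the lower quartile of genes in every case. Over all 7 the differences ran between -0.62 and 0.08, and 1 probe set had the same value on both arrays. At values as low as those of the other 6, a difference could not be measured.

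Among 23 genes of synaptic vesicles and exocytosis, 4 were raised and none reduced, against 9.84% and 6.72% of all genes, and the median was -0.18. CPLX1, 1 of the 4, was at 4.79 in PC3CR and 3.13 in PC3, below the median of both arrays. The raised count was 3 after loess centring and 1 at 3-fold. STX1A, a SNARE protein of the nerve terminal, was reduced after loess centring or quantile normalization. SNAP25, a SNARE protein of neurons, was at 6.45 in PC3CR and 5.16 in PC3, and its 3 probe sets gave differences of 0.37 to 1.29. SYT1, the calcium sensor of vesicle release, was at 6.51 in PC3CR and 5.25 in PC3, and its 2 probe sets differed by 1.26 and 1.44. SYNGR3, a vesicle membrane protein related to SYP, was at 9.74 in PC3CR and 8.73 in PC3, a difference of 1.003.

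Genes of neuronal adhesion, cytoskeleton and RNA binding also went both ways. Among 24 genes, 3 were raised and 2 reduced, against 9.84% and 6.72% of all genes, and the median was -0.13. MAP2, which stabilises dendritic microtubules, was at 8.67 in PC3CR and 5.29 in PC3. NRCAM, an adhesion molecule of axons, was at 6.81 in PC3CR and 4.47 in PC3, and its second probe set differed by 0.25. CELF4, a neuronal RNA-binding protein, was at 6.81 in PC3CR and 5.35 in PC3, and its 7 probe sets differed by between -0.10 and 1.81. ELAVL2, another neuronal RNA-binding protein, was at 2.81 in PC3CR and 7.76 in PC3, and both its probe sets were reduced. The PC3CR value was below the lower quartile of genes, so the size of this difference was not measured.

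The enzyme markers differed. UCHL1, a ubiquitin hydrolase known as PGP9.5, was at 12.39 in PC3CR and 10.00 in PC3. The difference was 2.39, or 5.23-fold. The PC3CR value was above those of 99.3% of genes on its array and the PC3 value above those of 92.1%. The second probe set was at 5.65 in PC3CR and 3.81 in PC3, a difference of 1.84. Both probe sets of UCHL1 were thus raised, as were all probe sets in 23.8% of the 1300 genes with several probe sets and a raised leading one. UCHL3, its closest relative, was at 9.50 in PC3CR and 10.15 in PC3, a difference of -0.65.

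ENO2, the enolase called neuron-specific enolase, was at 8.998 in PC3CR and 8.83 in PC3. The difference of 0.17 was that of its only probe set and was shared by no other probe set. ENO1, the enolase of most tissues, was at 12.92 in PC3CR and 11.78 in PC3, a difference of 1.15. The 4 probe sets of ENO1 spanned 0.53 to 1.15, with a mean of 0.89, so that ENO1 was within 2-fold by that mean. ENO2 was therefore high and alike in both lines.

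The start of UCHL1 is shown as that of a member raised by both its probe sets. Its window is chr4:41256678-41256977 on the plus strand (RefSeq, GRCh38.p14), and capitals mark a TATA box match (TATAAA) on the opposite strand.
UCHL1: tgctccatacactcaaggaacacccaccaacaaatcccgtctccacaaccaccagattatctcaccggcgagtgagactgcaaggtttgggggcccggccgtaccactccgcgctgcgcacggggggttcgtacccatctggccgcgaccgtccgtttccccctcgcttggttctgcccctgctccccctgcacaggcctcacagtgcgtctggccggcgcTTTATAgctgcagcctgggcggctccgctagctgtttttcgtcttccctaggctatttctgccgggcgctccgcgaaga
The match starts 29 bases before the annotated start. The motif stood on either strand in 11.5% of all windows. A GC box (GGGCGG), not in capitals, follows 13 bases before the start and is found in 45% of windows. The windows of CHGA, SYP and ENO2 and 1 of the 2 of NKX2-1 also hold a GC box.

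The transcription factor markers went in opposite directions. NKX2-1, also called TTF1, patterns lung, thyroid and forebrain. Its leading probe set was at 9.09 in PC3CR and 6.81 in PC3, a difference of 2.28 or 4.85-fold. Its second probe set was at 7.09 in PC3CR and 6.04 in PC3, a difference of 1.04. Both probe sets have suffixes (_s_at and _x_at) that the maker gives to probe sets that may bind related transcripts. Averaged, they gave a difference of 1.66.

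FOXA2, a forkhead factor of foregut endoderm, was at 5.64 in PC3CR and 7.39 in PC3 with its leading probe set. The difference was -1.76, so the level was 3.38-fold lower in PC3CR. The second probe set was at 4.47 in PC3CR and 5.93 in PC3, a difference of -1.46. These probe sets were designed on the same transcript record. The third was at 4.25 in PC3CR and 4.42 in PC3, below the median of both arrays, and differed by -0.17. The mean of the 3 was -1.13. Every probe set was reduced in 30.1% of the 806 genes with several probe sets and a reduced leading one, of which FOXA2 was not one. Its relatives FOXA1 and FOXA3 lay within 2-fold. FOXA1, a pioneer factor of luminal prostate cells, was at 6.68 in PC3CR and 6.93 in PC3.

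**Figure D2:**
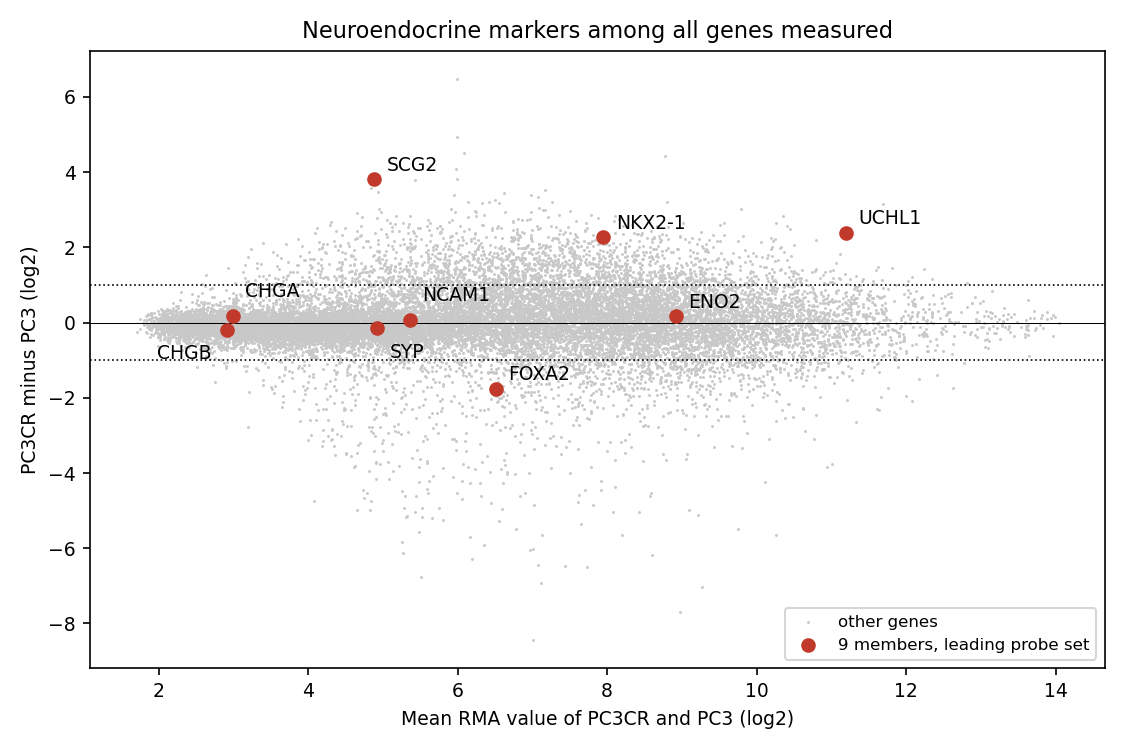
PC3CR minus PC3 (log2, vertical axis) against the mean RMA value of both lines (log2, horizontal axis) for 19775 genes, 1 grey point per gene, with the 9 markers in red and dotted lines at 2-fold. SCG2 (3.81), UCHL1 (2.39) and NKX2-1 (2.28) lie above the upper line, FOXA2 (-1.76) below the lower one, and the other 5 between them.

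Of 22 measured genes among other neuroendocrine and neuronal transcription factors, 1 was raised and 1 reduced, and the median was -0.21. The raised one was LHX2, a LIM homeobox factor of forebrain, at 7.96 in PC3CR and 5.91 in PC3. The reduced one was ISL1, a LIM homeobox factor of motor neurons and endocrine cells, at 3.02 in PC3CR, below the lower quartile, and 5.19 in PC3. INSM1, a zinc finger factor used as a pan-neuroendocrine marker, was at 2.18 in PC3CR and 2.38 in PC3, below the lower quartile in PC3CR as in PC3. Its 2 probe sets differed by -0.20 and -0.09.

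REST silences many neuronal genes outside the nervous system. It was at 7.92 in PC3CR and 7.84 in PC3, and its 3 probe sets differed by between -0.16 and 0.08. Of 11 genes of REST and its cofactors none was raised or reduced. Their median was 0.08, and -0.04 after loess centring. The histone deacetylases HDAC1 and HDAC2 differed by 0.14 and -0.76, but the 2 probe sets of HDAC2 disagreed, at -0.76 and 0.18.

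Peptide hormones and neuropeptides were mostly at low values. Of 19 measured, 5 were above the array median in PC3CR and 5 in PC3, 1 was raised, 1 was reduced, and the median was -0.24. GAL, the neuropeptide galanin, was at 10.13 in PC3CR and 7.83 in PC3, and both its probe sets were higher, by 2.30 and 1.69. ADM, the vasodilator adrenomedullin, was at 9.02 in PC3CR and 12.86 in PC3, a difference of -3.84.

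**Figure D3:**
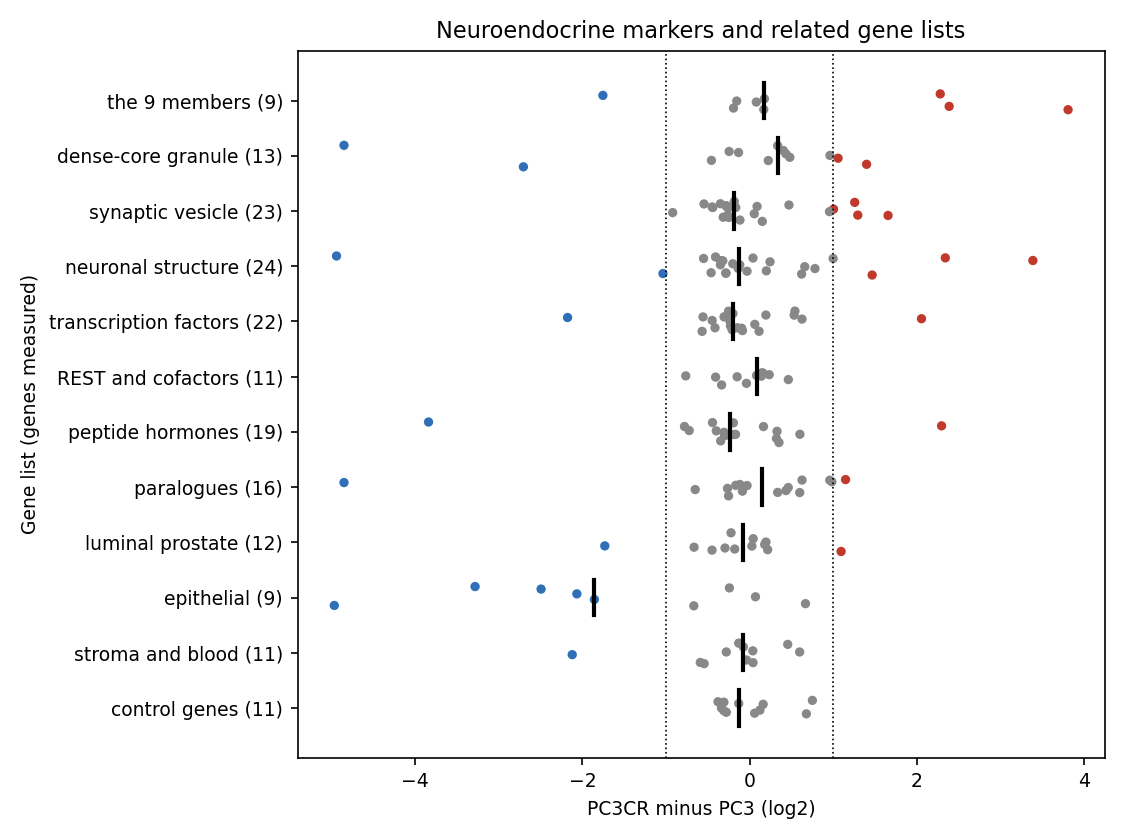
PC3CR minus PC3 (log2, horizontal axis) for the 9 markers and 11 related gene lists, where each point is a gene and brackets hold how many were measured. Red points are genes raised in PC3CR by 2-fold or more, blue those reduced by 2-fold or more and grey the rest, black bars are medians, and the median of the 9 markers is 0.17 whereas that of the epithelial list is -1.86.

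The genes next to the 4 markers past 2-fold were then read, 5 measured genes on each side in the RefSeq gene order, a comparison chosen after the values had been seen. NKX2-1 had 3 raised neighbours of 10 and none reduced, where 9.84% of all genes were raised and 6.72% reduced. SFTA3, a long noncoding RNA gene that overlaps NKX2-1, was at 8.58 in PC3CR and 6.23 in PC3, a difference of 2.35 beside the 2.28 of NKX2-1. NKX2-1-AS1, the other neighbour that overlaps NKX2-1, was at 4.03 in PC3CR and 3.78 in PC3, a difference of 0.25. SLC25A21, a mitochondrial carrier, was at 11.35 in PC3CR and 9.14 in PC3. RALGAPA1, a GTPase activator, differed by 1.76, but its 5 probe sets ran between -0.51 and 1.76. The homeobox genes NKX2-8 and PAX9, which lie between NKX2-1 and SLC25A21, differed by 0.45 and -0.11.

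NKX2-1 and SFTA3 share an annotated start. One of the 2 RefSeq windows of NKX2-1 is also 1 of the 2 of SFTA3, and both genes are read from the minus strand. Of 34943 distinct windows, 171 are listed for more than 1 gene. The files do not place the probe sets within these genes, so whether the SFTA3 probe set also binds NKX2-1 RNA was not tested. The windows of NKX2-1 are shown because they bear on these overlapping genes, first the one shared with SFTA3, chr14:36519507-36519806, then the other, chr14:36520183-36520482, both GRCh38.p14.
NKX2-1 and SFTA3: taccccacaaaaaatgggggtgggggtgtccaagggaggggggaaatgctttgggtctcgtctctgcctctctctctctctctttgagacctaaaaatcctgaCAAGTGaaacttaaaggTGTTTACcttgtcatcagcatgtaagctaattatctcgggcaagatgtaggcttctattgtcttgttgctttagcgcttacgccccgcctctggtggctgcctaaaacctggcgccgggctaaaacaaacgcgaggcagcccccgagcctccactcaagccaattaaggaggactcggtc
NKX2-1: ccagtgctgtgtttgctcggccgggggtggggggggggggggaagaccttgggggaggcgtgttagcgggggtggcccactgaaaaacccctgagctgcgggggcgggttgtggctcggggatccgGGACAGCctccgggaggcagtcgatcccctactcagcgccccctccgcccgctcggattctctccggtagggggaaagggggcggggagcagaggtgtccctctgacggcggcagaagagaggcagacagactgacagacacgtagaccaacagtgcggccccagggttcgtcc
In the shared window the capitals mark CAAGTG, a motif of NK2 homeobox proteins such as NKX2-1 itself, and TGTTTAC, a motif of forkhead proteins such as FOXA2. They start 147 and 130 bases before the start and do not overlap. CAAGTG stood in 11.5% and TGTTTAC in 3.42% of all windows, on either strand. In the other window the capitals mark GGACAGC, the right part of the REST element, which 6.03% of windows hold.

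UCHL1 had 4 raised neighbours of 10 and none reduced, beside the same 9.84% and 6.72% of all genes, with a median of 0.75. The neighbours on either side were among them. APBB2, an adaptor that binds the amyloid precursor protein, was at 8.76 in PC3CR and 7.03 in PC3, and LIMCH1, an actomyosin regulator, at 8.80 in PC3CR and 6.99 in PC3. The probe sets of both genes disagreed, between 0.00 and 1.73 over 7 for APBB2 and between -0.18 and 1.81 over 4 for LIMCH1. SLC30A9, a zinc transporter, differed by 1.34, and CHRNA9, a nicotinic receptor subunit below the median on both arrays, by 1.22. With neighbours taken among genes that reached the median on at least 1 array, 3 of 10 were raised, against 13.8% of such genes. This floor admits a gene through the array where it is high, so that count is no check on the neighbourhood. With 10 genes on each side of UCHL1 the median was 0.36.

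The neighbours of SCG2 were read by their leading probe sets. None of its 10 neighbours was raised and 1, SERPINE2, a protease inhibitor, was reduced, with a median of -0.25. FOXA2 had 1 raised and 1 reduced neighbour. The reduced one was LINC00261, the noncoding RNA gene next to FOXA2, at 3.96 in PC3CR and 5.13 in PC3, a difference of -1.17. It has 1 probe set, and its PC3CR value was below the lower quartile of genes, so the size of this difference was not measured. The raised one was THBD, the receptor thrombomodulin, at 7.98 in PC3CR and 5.68 in PC3.

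**Figure D4:**
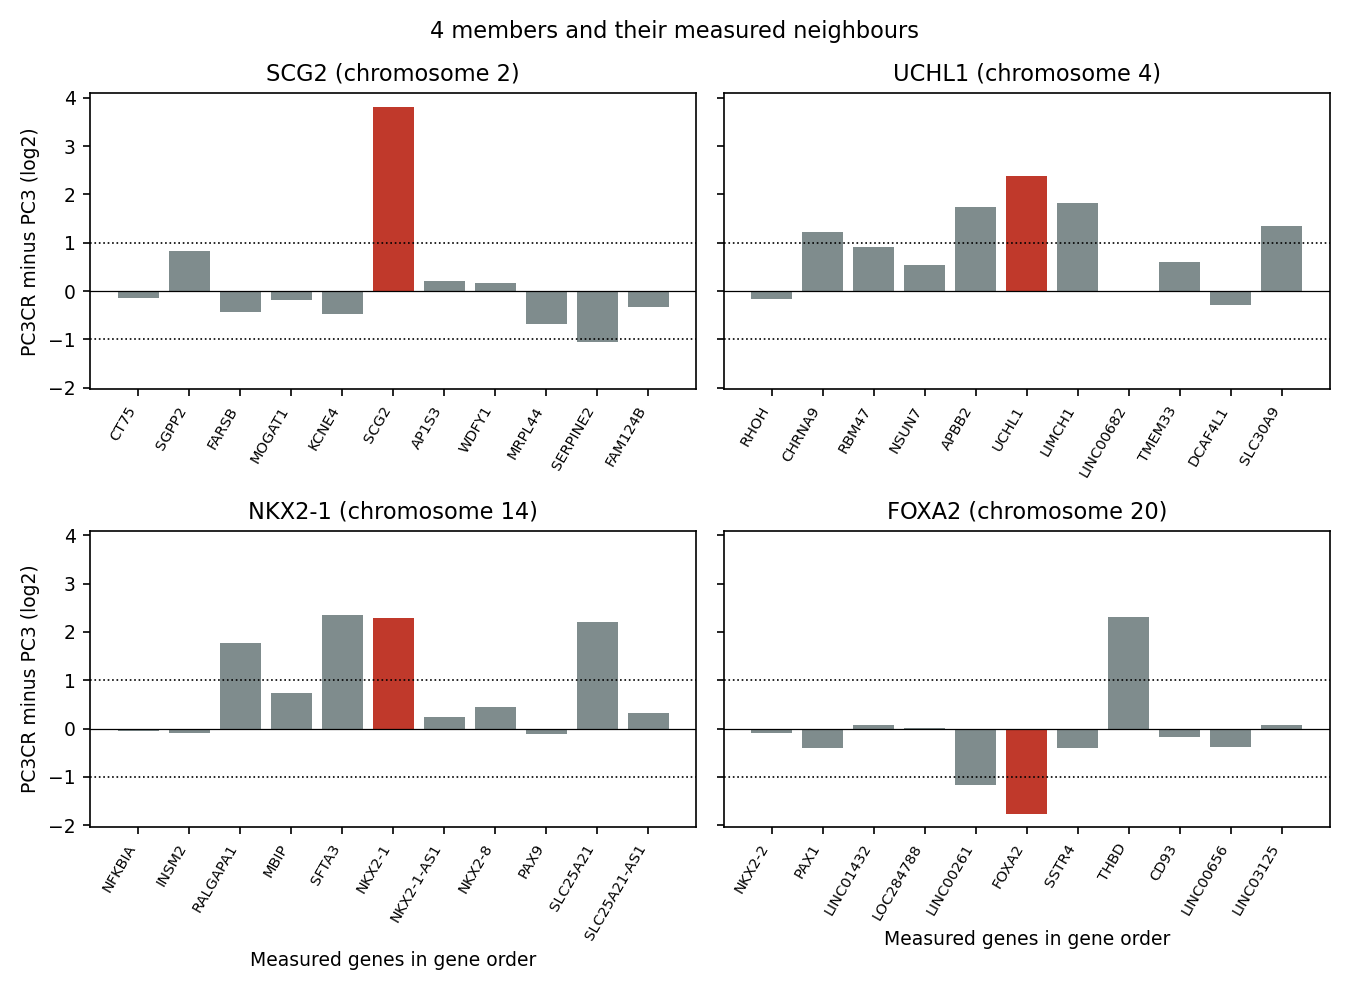
PC3CR minus PC3 (log2, vertical axis) for SCG2, UCHL1, NKX2-1 and FOXA2 (red bars) and the 5 nearest measured genes on each side (grey bars) in gene order along the chromosome (horizontal axis), with dotted lines at 2-fold. SFTA3 (2.35) stands beside NKX2-1 (2.28) and LINC00261 (-1.17) beside FOXA2 (-1.76), while no neighbour of SCG2 reaches the upper line. The PC3CR value of LINC00261 was below the lower quartile of genes.

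Genes of cell types were also read, from lists chosen with earlier results of these data known, so they are no independent check of cell type. The epithelial keratins KRT18 and KRT8 were at 12.36 and 9.79 in PC3CR and at 11.69 and 9.72 in PC3. Of 9 epithelial genes, 7 were above the array median in PC3CR and 9 in PC3, but 5 were reduced in PC3CR and none was raised, with a median of -1.86. They included CLDN4, a tight junction protein, at 4.11 in PC3CR and 9.08 in PC3 (its second probe set differed by -0.19), KRT19 at 8.03 in PC3CR and 11.32 in PC3 (its second probe set differed by -0.98), EPCAM at 8.57 in PC3CR and 11.07 in PC3, and CLDN7 at 6.07 in PC3CR and 8.14 in PC3. The median was -1.05 with the mean of probe sets and -0.67 without the suffixed ones. Their summed linear level was 7805 in PC3CR and 12476 in PC3. These differences lie between the same arrays as those of the markers, and their part in the results was not tested.

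Of 12 luminal prostate genes, 7 were above the array median in PC3CR and 8 in PC3, 1 was raised and 1 reduced. HOXB13, a prostate homeobox factor, was at 4.27 in PC3CR and 5.999 in PC3, and FKBP5, an androgen-responsive chaperone, at 9.46 in PC3CR and 8.37 in PC3. Of the secretory genes, KLK2, ACP3 and MSMB were below the median on both arrays, while KLK3 was at 8.08 in PC3CR and 8.04 in PC3 and KLK4 at 6.98 in PC3CR and 7.15 in PC3. Of 11 genes of stroma, vessels and blood, none was raised, and 1, COL1A1, was reduced, with 5 probe sets between -2.12 and 0.03. The range of these 11 genes was 2.95 to 6.56 in PC3CR and 2.92 to 8.69 in PC3, and their summed linear level was 419 in PC3CR and 784 in PC3. PTPRC, which encodes the blood cell antigen CD45, was at 2.95 in PC3CR and 3.03 in PC3. None of 11 control genes passed 2-fold, with a median of -0.13, and PPIA and B2M differed by -0.31 and 0.16.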

How the data were processed

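RNA of PC3CR and PC3 was measured on 1 Affymetrix array each. The authors deposited log2 values, 1 for each of 54613 probe sets, made with RMA. RMA, Transcriptome Analysis Console 3.1 and Expression Console 1.4, both of Affymetrix, stand in the submitters' processing notes. RMA brings the arrays to a like distribution, which hides any difference in total RNA. Probe set identifiers follow the U133 Plus 2.0 design, while the methods name another array. The files hold no detection call, so a value near the floor cannot be told from absence.

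Of the probe sets, 41091 had 1 gene symbol, 1801 several and 11721 were unnamed here. Symbols were updated through Entrez IDs for 41037 (RefSeq, GRCh38.p14). PC3CR minus PC3 was taken for each gene and counted at 2-fold, the threshold of the methods. No p-value was computed. The members and the 11 lists were chosen with earlier results of these data known. Of 180 related genes listed, 162 were measured, and the others were not analysed here. Genes named were the 9 members, up to 4 genes per list furthest from 0 past 2-fold with the brighter array at or above the median or else the 2 brightest, and 8 genes chosen by name, of which 5 had values here. Others named, and the genes next to the members, were chosen after their values were seen. With 2 arrays no likeness of pattern between genes could be computed. RefSeq start windows were matched by symbol for 5 of 9 members. The alternatives were 3 other choices of probe set, 3 scalings (median centring, loess with a span of 0.4, quantile normalization), 1.5-fold and 3-fold thresholds and 2 floors on signal. The rule was also run on simulated arrays with planted differences larger than the threshold. Their noise was set rather than taken from the real arrays, so this run does not bear on the calls made here. Versions were matplotlib 3.10.9, statsmodels 0.14.6, pandas 2.3.3, numpy 2.4.6 and Python 3.11.15.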

Additional observations from a re-analysis of the deposited data

How the results depend on the processing

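The counts of 3 raised members and 1 reduced member were the same under all 10 alternatives, but some of these could not change them. NKX2-1 has suffixed probe sets alone and kept its leading one where such sets were left out. Choosing the probe set highest in PC3 gave the leading one for every member, and 5 members have 1 probe set. The floor at the array median admits SCG2 through PC3CR alone. The shares of all genes did change, from 18% higher and 13.5% lower at 1.5-fold to 3.82% and 3.1% at 3-fold. The median of the members lay between 0.08 and 0.17. The number of members called above the dividing line depended on that line. With the median over genes 4 members were above it in PC3CR and 4 in PC3, and with the upper quartile over probe sets 3 were above it in PC3CR and 3 in PC3. As many genes lie above the median over genes as below it. The share of all genes above the upper quartile was not recorded, so these counts are not read as a trait of the set. Of 70 single-member differences under alternatives, 10 moved by over 0.1, and no difference past 2-fold changed sign. The values without suffixed probe sets were 1.84 for UCHL1 and -0.05 for NCAM1, and loess centring gave 2.16 for NKX2-1 and -1.87 for FOXA2. Of 308 counts and medians of the related lists, 40 moved. Over genes that reached the array median on at least 1 array, the median turned positive for synaptic genes (0.05), neuronal structure (0.62), transcription factors (0.19) and peptides (0.17), but this floor admits a gene through the array where it is high and so follows the difference itself. No paired analysis was possible because each cell line has 1 array. Differences near the floor, as for CHGA and CHGB, could not be measured.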

Other observations

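Small differences between these arrays often had exactly the same size. Among the 25241 probe sets below the median on both arrays, 61.6% shared the size of their difference, to within 1e-05, with at least 10 others, against 8.95% of the other 29372. In the members, CHGA shared its difference with 86 other probe sets, SYP with 45, CHGB with 10 and the leading probe set of NCAM1 with 7. The probe sets of SCG2, UCHL1, NKX2-1 and ENO2 and the brighter 2 of FOXA2 shared theirs with none.

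The genes 10 places to either side gave further values for NKX2-1, where 5 of 20 were raised by 2-fold or more, against 9.84% of all genes. How many of these 20 were reduced was not recorded. The start window of LINC00261 holds the forkhead motif TGTTTAC on the opposite strand, 237 bases before its annotated start, as 3.42% of windows hold it on either strand.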
